A study of Mus musculus with 8 samples.

Results

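Dual specificity phosphatases and other feedback inhibitors of the ERK pathway were examined in mpkCCDc14 cells, a mouse line from the kidney cortical collecting duct, after aldosterone for 6 h and for 1 h. The 10 listed genes were Dusp1, Dusp2, Dusp4, Dusp5, Dusp6, Dusp10, Dusp14, Spry2, Spry4 and Errfi1, and every probe annotated with one of these symbols was taken. Of these genes 9 had a probe, 1 each, with a value on all 8 arrays, among 15079 features measured in all (12536 genes and 2543 unnamed probes). Dusp5 had no probe under its symbol, so its expression was not analysed here.

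Each array set cells given aldosterone, the adrenal mineralocorticoid, at 1 µM against cells given the ethanol vehicle for the same time, with 4 arrays at 6 h and 4 at 1 h. The labels number only replicates 3 and 4 at 6 h. The other numbers follow the order of deposit and tie no array at 6 h to one at 1 h. Both channels of every array held RNA of this single line, grown on collagen-coated transwell filters and kept in steroid-free serum beforehand. Aldosterone cDNA carried Cy5 and vehicle cDNA Cy3 throughout, so a log2 ratio above 0 means more signal with aldosterone. The dyes were never exchanged, so in every test against vehicle the hormone's effect on a gene and a bias of that gene toward 1 dye cannot be told apart.

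ERK, the last kinase of the Ras-Raf-MEK cascade, is switched off when dual specificity phosphatases remove the phosphates from its activation loop. Many genes of these phosphatases, and of the Sprouty proteins that inhibit the cascade higher up, are induced by ERK itself, which closes a negative feedback loop. Errfi1 encodes an inhibitor of the EGF receptor. Corticosteroids are known to induce Dusp1 and Errfi1 in many cells, and the EGF receptor and ERK have been studied in collecting duct cells as modulators of sodium transport.

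The promoters of Dusp6 and Dusp1 are shown because these genes shared 1 order of signs over the 1 h arrays, described further on. Each window holds 250 bases before and 50 bases after the gene's start, from RefSeq on build GRCm38.p6, 5′ to 3′ along the gene. The Dusp6 window is chr10:99262981-99263280 on the + strand and the Dusp1 window chr17:26508423-26508722 on the - strand. Capitals mark matches to a cyclic AMP response element (TGACGTCA) or its core (TGACGT).
Dusp6: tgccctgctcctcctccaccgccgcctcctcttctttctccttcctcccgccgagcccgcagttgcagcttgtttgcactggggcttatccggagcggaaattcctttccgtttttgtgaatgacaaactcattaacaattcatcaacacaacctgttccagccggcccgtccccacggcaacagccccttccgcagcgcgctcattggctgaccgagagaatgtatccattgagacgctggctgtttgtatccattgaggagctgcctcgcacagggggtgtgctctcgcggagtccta
Dusp1: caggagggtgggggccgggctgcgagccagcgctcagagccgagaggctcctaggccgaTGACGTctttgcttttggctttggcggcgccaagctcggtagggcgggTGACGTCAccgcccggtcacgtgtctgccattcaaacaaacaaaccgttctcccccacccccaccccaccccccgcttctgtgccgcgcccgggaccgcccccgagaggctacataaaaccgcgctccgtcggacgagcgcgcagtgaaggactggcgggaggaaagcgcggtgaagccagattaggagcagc
The Dusp1 window held 1 full element, which contains the core on both strands, and another core farther upstream. The Dusp6 window held none. On either strand the full element was found in 1.79% and the core in 7.51% of 32851 promoter windows of the same length. The short glucocorticoid receptor motif (AGAACA, 19% of windows) and the CArG box that binds serum response factor (1.63%) were not in these windows. Windows were at hand for 8 of the listed genes, 9 windows in all. Among them a window of Errfi1 also held the full cyclic AMP element, and that of Dusp5 held the core and adjoining CArG boxes. A match describes the letters and not a bound site.

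The 9 genes did not move as a group. At 6 h Dusp6 was above vehicle, Spry4 was below and 7 genes did not pass limma's test at an adjusted p of 0.05. At 1 h Dusp2 and Dusp14 were above vehicle, Spry4 was below and 6 did not pass. At 6 h 17.7% of all features passed (7.11% above and 10.6% below), and at 1 h 40.9% passed (19.9% above and 21% below), so 2 of 9 at 6 h and 3 of 9 at 1 h lie near the background. The median log2 ratio over the 9 genes was 0.05 at 6 h and 0.15 at 1 h, beside -0.0014 and 0.0025 over all features.

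**Figure D1:**
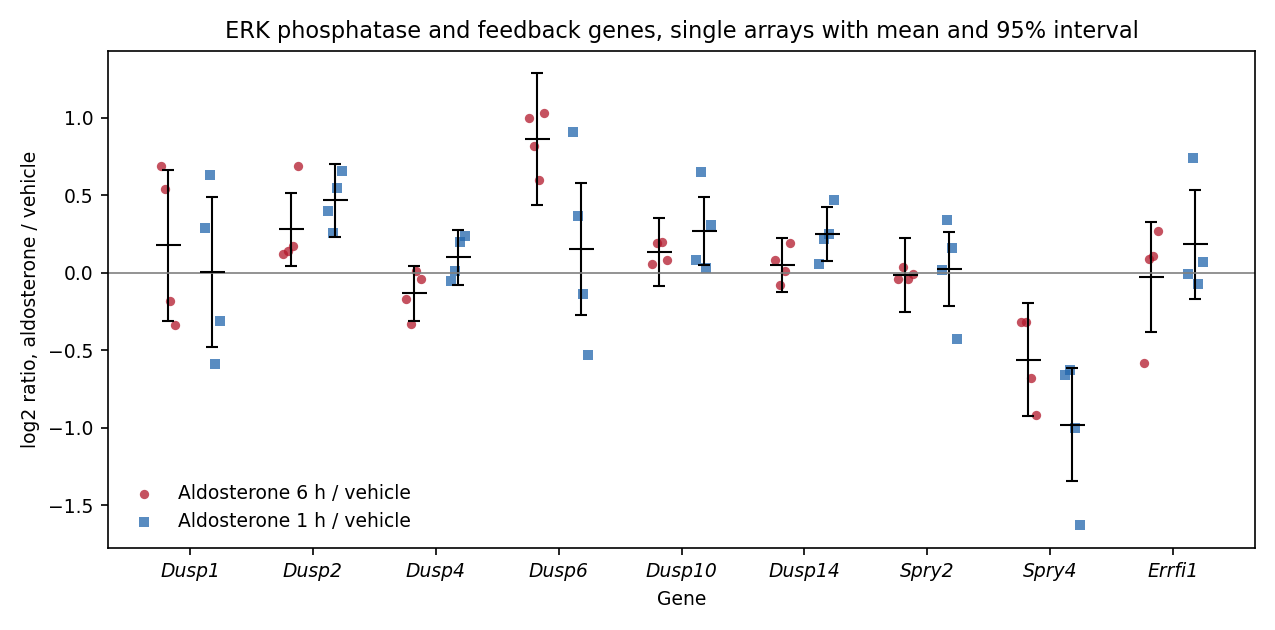
Log2 ratio of aldosterone over vehicle on each array for the 9 genes (circles 6 h, squares 1 h), with the mean and 95% interval of the limma fit (horizontal marks and bars). Dusp6 lies between 0.60 and 1.03 on the 6 h arrays and between -0.53 and 0.91 on the 1 h arrays, and Spry4 lies below 0 on all 8.

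Dusp6 encodes MKP3, a cytoplasmic phosphatase selective for ERK. Its log2 ratios on the 6 h arrays were 1.00, 0.82, 0.60 and 1.03 for replicates 1 to 4. On the 1 h arrays they were 0.91, 0.37, -0.14 and -0.53. All 4 arrays at 6 h were above 0, whereas the 1 h arrays lay on both sides of it. The mean at 6 h was 0.86 ± 0.20 (SD, n = 4), a 1.82-fold ratio with a 95% interval of 1.35 to 2.44 (adjusted p = 0.0158). Dusp6 exceeded between 98.5% and 99.6% of all features on each 6 h array. At 1 h the mean was 0.15 ± 0.63 (SD, n = 4; adjusted p = 0.541), with a 95% interval of -0.27 to 0.58. Here and below, limma's intervals and p-values rest on 1 spread per gene shared by both times, not on the SD beside them. For Dusp6 the SE was thus 0.19 at 6 h and at 1 h. The position of Dusp6 on the 1 h arrays ran from above 99.5% of features on replicate 1 to above 17.2% on replicate 4. The 6 h call was lost without replicate 1 (adjusted p = 0.0538), 2 (0.0518) or 4 (0.0667), although the mean was then 0.82, 0.88 and 0.81.

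Dusp1 encodes MKP1, a nuclear phosphatase of ERK, p38 and JNK that corticosteroids induce in many cells. On the 6 h arrays its log2 ratios were 0.69, 0.54, -0.18 and -0.34 for replicates 1 to 4. On the 1 h arrays they were 0.29, 0.63, -0.59 and -0.31. At each time 2 arrays were above 0 and 2 below it. The means were 0.18 ± 0.51 at 6 h and 0.01 ± 0.56 at 1 h (SD, n = 4 each), and Dusp1 passed at neither time (adjusted p = 0.593 and 0.987). The 95% intervals ran from -0.31 to 0.66 at 6 h and from -0.48 to 0.49 at 1 h, so a change of up to 1.58-fold at 6 h lay within them.

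Dusp2 and Dusp4 encode the other nuclear ERK phosphatases with a probe. The log2 ratios of Dusp2 were 0.12, 0.14, 0.17 and 0.69 at 6 h, and 0.40, 0.26, 0.55 and 0.66 at 1 h. Every array was above 0, as it was for 14.6% of all features. At 6 h replicate 4 stood well above the other arrays and the mean was 0.28 ± 0.27 (SD, n = 4; adjusted p = 0.0941). Without replicate 4 it was 0.14. With the arrays brought to a common spread Dusp2 passed at 6 h too (adjusted p = 0.025, and 0.0288 after quantile normalization, in a range of 0.025 to 0.356 over all alternatives). At 1 h Dusp2 was 1.38-fold above vehicle (mean 0.47 ± 0.17, SD, n = 4; adjusted p = 0.0081). Without any given 1 h array the call held, with adjusted p between 0.0129 and 0.0344. Dusp4 lay between -0.33 and 0.01 at 6 h and between -0.05 and 0.24 at 1 h. Its means were -0.13 ± 0.15 at 6 h and 0.10 ± 0.14 at 1 h (SD, n = 4 each; adjusted p = 0.266 and 0.333).

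Dusp10 encodes MKP5, which acts on JNK and p38 more than on ERK. It was above 0 on all 8 arrays, with log2 ratios of 0.06, 0.19, 0.20 and 0.08 at 6 h, and 0.08, 0.65, 0.03 and 0.31 at 1 h. The 6 h arrays lay close together, and replicate 2 was the highest at 1 h. The means were 0.13 ± 0.07 at 6 h (adjusted p = 0.365) and 0.27 ± 0.28 at 1 h (adjusted p = 0.0525; SD, n = 4 each). Dusp10 passed at 1 h by SAM, the test named in the labels but computed anew here, as did 52.9% of all features. It also passed in limma without replicate 3 (adjusted p = 0.0419, in a range up to 0.216), as did 30% of all features. Without replicate 2 the 1 h mean was 0.14 (adjusted p = 0.216).

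Dusp14 encodes a small atypical phosphatase without the kinase-binding domain of the classical MAP kinase phosphatases. Its log2 ratios were 0.08, -0.08, 0.01 and 0.19 at 6 h, and 0.06, 0.22, 0.25 and 0.47 at 1 h. The 1 h arrays were all above 0 and the 6 h arrays were not. At 6 h the mean was 0.05 ± 0.11 (SD, n = 4; adjusted p = 0.686). At 1 h it was 0.25 ± 0.17 (SD, n = 4), a 1.19-fold ratio (adjusted p = 0.0307). The 1 h call was lost without replicate 2 (adjusted p = 0.0659), 3 (0.0823) or 4 (0.103), and when the 1 h arrays were fitted alone (0.0698). Without replicate 4 the mean was 0.18.

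Spry4, one of the Sprouty inhibitors of receptor tyrosine kinase signalling, had the lowest mean of the 9 genes at each time. On the 6 h arrays its log2 ratios were -0.32, -0.32, -0.68 and -0.92. On the 1 h arrays they were -0.66, -0.63, -1.0 and -1.63. All 8 arrays were below 0, as they were for 15.1% of all features. At 6 h the signal was 0.678 times that of vehicle (mean -0.56 ± 0.29, SD, n = 4; adjusted p = 0.0414), which did not pass once any given 6 h array was left out (adjusted p between 0.063 and 0.169). At 1 h it was 0.507 times vehicle (mean -0.98 ± 0.46, SD, n = 4; adjusted p = 0.0026), and that call held without any given 1 h array (adjusted p between 0.00596 and 0.0118). Spry4 was the one member below vehicle at both times by limma, a result shared by 6.89% of all features.

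Spry2, another Sprouty gene, differed from vehicle by little at 6 h, with log2 ratios of -0.04, 0.04, -0.04 and -0.01. On the 1 h arrays they were 0.02, 0.34, 0.16 and -0.43. The 6 h arrays lay within 0.08 of each other and the 1 h arrays spanned 0.77. The means were -0.01 ± 0.04 at 6 h and 0.02 ± 0.33 at 1 h (SD, n = 4 each; adjusted p = 0.945 and 0.882), with 95% intervals of -0.25 to 0.23 and -0.22 to 0.26.

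Errfi1, the EGF receptor inhibitor also called Mig6, had log2 ratios of -0.58, 0.09, 0.11 and 0.27 at 6 h, and -0.01, 0.74, -0.07 and 0.07 at 1 h. At 6 h replicate 1 was the lowest by far, and at 1 h replicate 2 the highest by far. The means were -0.03 ± 0.38 at 6 h and 0.18 ± 0.38 at 1 h (SD, n = 4 each; adjusted p = 0.92 and 0.369). Without those arrays the means were 0.16 at 6 h and -0.002 at 1 h.

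The spread of ratios differed between the arrays. The standard deviation of the log2 ratios over all features was 0.576 on replicate 4 at 1 h and 0.481 on replicate 4 at 6 h, against 0.30 to 0.38 on the other 6 arrays. Replicate 4 at 6 h gave the highest ratios of Dusp2, Dusp6, Dusp14 and Errfi1 and the lowest of Dusp1 and Spry4 at that time. Replicate 4 at 1 h gave the highest ratios of Dusp2, Dusp4 and Dusp14 and the lowest of Dusp6, Spry2 and Spry4 at that time. Without the 6 h array the mean of Dusp6 was 0.81 (adjusted p = 0.0667) and that of Spry4 -0.44 (0.169). Without the 1 h array the 1 h means were 0.40 for Dusp2 (adjusted p = 0.0344) and 0.18 for Dusp14 (0.103), and -0.76 for Spry4 (0.00628). Array medians lay between -0.005 and 0.0049, and arrays correlated with r from 0.312 to 0.723 across features. Among the 1 h arrays r ran from 0.61 to 0.723 and among the 6 h arrays from 0.466 to 0.596. Between arrays of different times it ran from 0.312 to 0.587. Ratios carry no level, so the line could not be checked against collecting duct markers, and levels of different genes are not compared. Among 11 fibroblast, endothelial and blood cell markers 1 was above and 1 below vehicle at 6 h, and 1 above and 3 below at 1 h. Among 14 principal cell markers 2 were above and 1 below at 6 h, and 5 above and 3 below at 1 h. Of 6 intercalated cell markers 1 was above and 1 below at 6 h, and 1 above and 3 below at 1 h, and of 7 markers of other nephron segments 1 was above at each time. The part of these markers in the results was not tested.

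Dusp1 and Dusp6 had the same order of signs on the 1 h arrays as 3 of 22 corticosteroid targets, Sgk1, Tsc22d3 and Klf9. Others of the 22, such as Fkbp5 and Atp1b1, were above 0 on every 1 h array. Sgk1, a kinase that keeps the epithelial sodium channel at the membrane, had log2 ratios of 1.65, 1.38, -0.64 and -0.16 on the 1 h arrays. Tsc22d3, the gene of the leucine zipper protein GILZ, had 1.01, 0.88, -0.60 and -0.15. Like Dusp1 and Dusp6, both were above 0 on replicates 1 and 2 and below 0 on replicates 3 and 4. That order of signs was found for 2.77% of all features and for 2 of the 9 genes. It was not particular to corticosteroid targets. Egfr, Dusp22, Zfp36 and Rras, from the other gene lists described below and named after their values were seen, had it too. At 6 h Sgk1 and Tsc22d3 were above 0 on every array, as was Dusp6, whereas Dusp1 was not. The labels give no difference between the 1 h arrays.

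**Figure D2:**
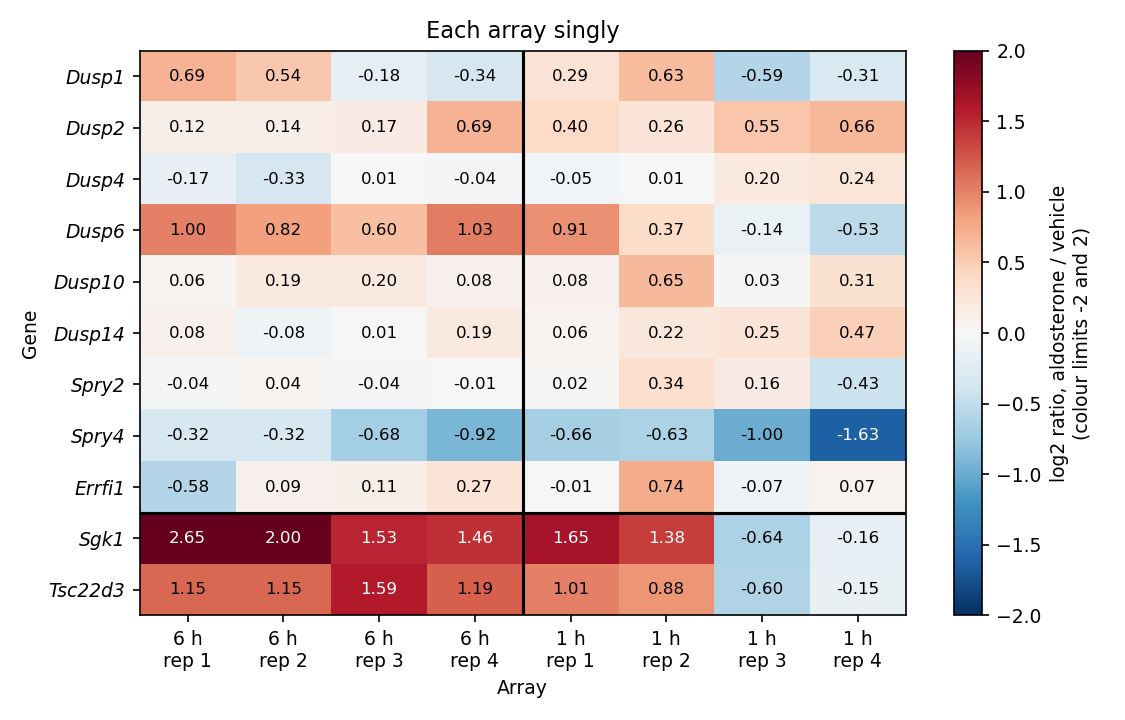
Log2 ratio of aldosterone over vehicle on each of the 8 arrays (columns, 6 h left of 1 h) for the 9 genes and, below the line, Sgk1 and Tsc22d3, in colours from blue (below 0) to red (above 0). At 1 h Dusp1, Dusp6, Sgk1 and Tsc22d3 are above 0 on replicates 1 and 2 and below 0 on replicates 3 and 4.

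The comparison of 6 h with 1 h cancels a dye difference that is the same on every array. None of the 9 genes differed between the times by limma after adjustment, and 0.0398% of all features did. At an unadjusted p under 0.05 there was 1 gene, Dusp6, beside 16.1% of all features. SAM over the arrays of the times called 0 of the 9 and 1.92% of all features. Dusp6 was higher at 6 h than at 1 h by 0.71 ± 0.27 on the log2 scale (SE; adjusted p = 0.262), with a 95% interval of 0.11 to 1.31. Its replicate 1 at 1 h, at 0.91, lay within the 6 h range, and the other 1 h arrays lay below it. Spry4 was nearer to 0 at 6 h than at 1 h, by 0.42 ± 0.23 (SE; adjusted p = 0.377). That difference was 0.20 without replicate 4 at 1 h, 0.18 with the arrays brought to a common spread and 0.27 with array weights. Dusp4 was lower at 6 h by 0.23 ± 0.11 (difference -0.23, SE; adjusted p = 0.338). The differences of the other 6 genes lay between -0.21 and 0.17. The arrays of the times overlapped for all 9 genes, whereas they did not overlap for 9.8% of all features. The range over the 4 arrays was wider at 1 h than at 6 h for 6 of the 9 genes, as it was for 57.6% of all features.

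**Figure D3:**
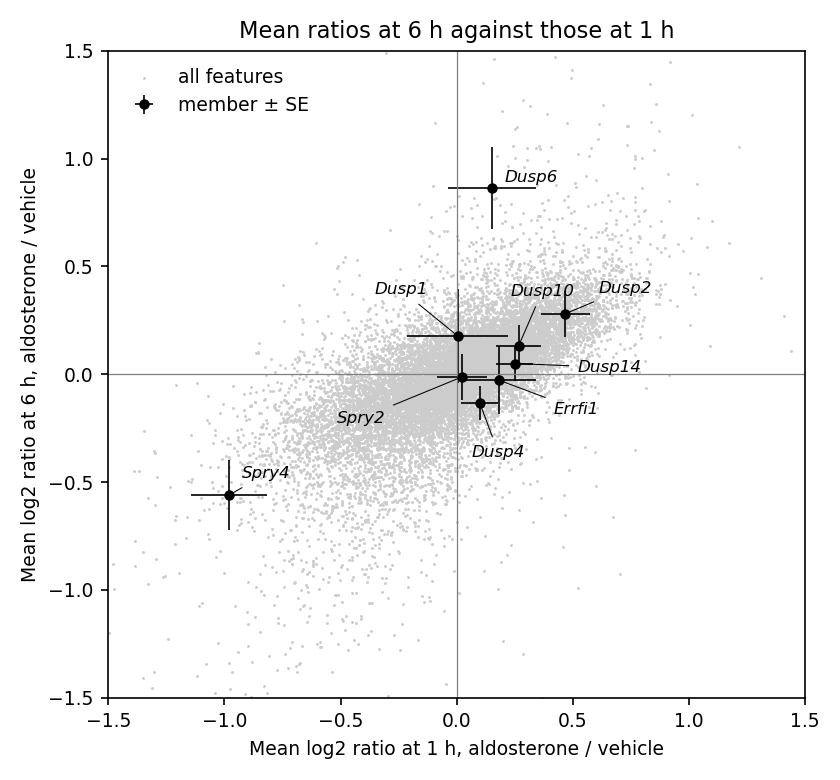
Mean log2 ratio at 6 h (vertical) against that at 1 h (horizontal) for all features (grey; axes limited to 1.5 on each side) and the 9 genes (black, bars are standard errors). Dusp6 lies high on the 6 h axis at 0.86 with 0.15 at 1 h, and Spry4 lies at -0.56 and -0.98.

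For the 3 genes with the widest range over the 8 arrays, the named genes nearest in ratio were sought by the root mean square difference over the 8 log2 ratios. Nearest to Dusp6 were Daw1 (0.254), Gclc (0.269) and Krt20 (0.284). Their 6 h means were 0.70 for Daw1, 0.94 for Gclc and 0.74 for Krt20, beside 1 h means of 0.20, 0.26 and 0.02. Nearest to Spry4 were Fgfr4 (0.153), Poteg (0.172) and Il13ra2 (0.189), with 6 h means of -0.47, -0.58 and -0.54 and 1 h means of -0.83, -1.10 and -0.87. Nearest to Errfi1 were Gna15 (0.187), Rab43 (0.191) and Rbp3 (0.199), none of which passed at either time.

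Of 19 other dual specificity and related phosphatases measured, 2 were above vehicle and 3 below at 6 h, and 3 above and 4 below at 1 h, with medians of 0.01 and -0.03. At 6 h those above were Dusp7, a close relative of Dusp6, and Ptp4a2, and those below were Dusp18, Dusp23 and Cdkn3. The 6 h call of Ptp4a2 was lost without replicate 1, 2 or 3 (adjusted p up to 0.135) and that of Dusp18 without replicate 2, 3 or 4 (up to 0.088). At 1 h the call of Dusp18 (mean -0.28, adjusted p = 0.00836) held without any given array. That of Ptp4a2 (mean 0.39, adjusted p = 0.04) was again lost without replicate 1, 2 or 3. Cdkn3, which dephosphorylates cyclin-dependent kinases, was at -0.77 ± 0.11 at 6 h (SE; adjusted p = 0.00313) and -1.07 ± 0.11 at 1 h (adjusted p = 0.000916). Styx, a catalytically inactive relative that binds ERK, was at -0.32 ± 0.11 at 6 h (adjusted p = 0.079) and -0.68 ± 0.11 at 1 h (adjusted p = 0.00264). Dusp23 was at -0.54 ± 0.12 at 6 h (adjusted p = 0.0138), and did not pass once replicate 1, 2 or 4 was left out (adjusted p up to 0.0614), and at -0.27 ± 0.12 at 1 h (adjusted p = 0.0883). Dusp7, named after its values were seen, was at 0.52 ± 0.14 at 6 h (adjusted p = 0.0327) and 0.50 ± 0.14 at 1 h (adjusted p = 0.0198). Each of its calls was lost without any of 3 arrays, at 6 h without replicate 1, 3 or 4 and at 1 h without replicate 1, 2 or 4.

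Among 24 other inhibitors of receptors, Ras or ERK, 2 were above vehicle and 3 below at 6 h, and 8 above and 3 below at 1 h (medians 0.06 and 0.11). Ptpn1, a phosphatase of receptor tyrosine kinases, reached 1.09 ± 0.11 at 6 h (SE; adjusted p = 0.000863) and 0.61 ± 0.11 at 1 h (adjusted p = 0.00375). Ppp2ca, a catalytic subunit of protein phosphatase 2A, was at 0.54 ± 0.07 at 6 h (adjusted p = 0.00255) and 0.66 ± 0.07 at 1 h (adjusted p = 0.000916). Rasa3, a GTPase-activating protein, was at -0.41 ± 0.08 at 6 h (adjusted p = 0.00963) and -0.14 ± 0.08 at 1 h (adjusted p = 0.178). The others below vehicle at 6 h were Spry1 and Spred1, relatives of the Sprouty members, named after their values were seen. Spry1 was at -0.44 ± 0.11 at 6 h (adjusted p = 0.0262) and 0.24 ± 0.11 at 1 h (adjusted p = 0.115), and Spred1 at -0.33 ± 0.08 at 6 h (adjusted p = 0.0227) and -0.17 ± 0.08 at 1 h (adjusted p = 0.111). The 6 h call of Spry1 was lost without replicate 1, 2 or 4, and that of Spred1 without any given array.

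Upstream of ERK, of 11 measured genes of the EGF receptor family and its ligands, 2 were above and 2 below vehicle at 6 h, and as many at 1 h (medians 0.03 and 0.04). Ereg, the ligand epiregulin, was at -1.46 ± 0.14 at 6 h (SE; adjusted p = 0.000638) and -0.98 ± 0.14 at 1 h (adjusted p = 0.00158). Nrg4, a neuregulin, was at -0.45 ± 0.12 at 6 h (adjusted p = 0.0336, lost without any given array) and -0.77 ± 0.12 at 1 h (adjusted p = 0.00223). Adam10, a protease that sheds ligands, was at 0.06 ± 0.08 at 6 h (adjusted p = 0.629) and 0.37 ± 0.08 at 1 h (adjusted p = 0.00817), and the other gene above at 1 h was Erbb4 (adjusted p = 0.0228, lost without replicate 3 or 4). Above vehicle at 6 h were the ligand Btc and the receptor Egfr, named after their values were seen. Btc was at 0.31 ± 0.09 at 6 h (adjusted p = 0.0428, lost without any given array). The log2 ratios of Egfr were 0.80, 0.72, 1.39 and 0.58 at 6 h, and 0.21, 0.57, -0.98 and -0.20 at 1 h. Its mean at 6 h was 0.87 ± 0.22 (SE; adjusted p = 0.0247), lost without any given 6 h array (adjusted p between 0.0535 and 0.0954).

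Of 31 genes of the MAP kinase cascade itself, 1 was above and 4 below vehicle at 6 h, and 8 above and 4 below at 1 h (medians 0.05 and 0.08). The one above at 6 h was Lamtor3, the MEK-binding scaffold also called MP1, and those below were Map3k5, Map3k7, Ksr1 and Rps6ka5. The 6 h call of Lamtor3 was lost without replicate 1, 3 or 4 (adjusted p up to 0.0622) and that of Map3k7 without any given array (up to 0.112). That of Ksr1 was lost without replicate 2 or 4 (up to 0.149) and that of Rps6ka5 without replicate 4 (0.0512). At 1 h Lamtor3 (mean 0.35, adjusted p = 0.00817) and Map3k7 (mean -0.295, adjusted p = 0.0104) passed, and both calls held without any given array. Ksr1 and Rps6ka5 did not pass at 1 h (adjusted p = 0.776 and 0.109). Map3k5, the stress kinase ASK1, was at -0.34 ± 0.08 at 6 h (SE; adjusted p = 0.0221, lost without replicate 3 or 4) and -0.73 ± 0.08 at 1 h (adjusted p = 0.000923). Mapkapk2, a kinase downstream of p38, was at -0.05 ± 0.07 at 6 h (adjusted p = 0.608) and 0.42 ± 0.07 at 1 h (adjusted p = 0.00227). Rps6ka3, the ERK-activated kinase RSK2, was at 0.33 ± 0.10 at 6 h (adjusted p = 0.0571) and 0.55 ± 0.10 at 1 h (adjusted p = 0.00429).

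Of 31 early genes that ERK activity is known to raise in other cells or that belong to their families, 2 were above and 3 below vehicle at 6 h, and 6 above and 4 below at 1 h (medians -0.02 and 0.06). At 6 h Fosl1 and Junb were above, and Etv1, Etv4 and Phlda1 below. The calls of Junb and Etv4 were lost without any given array (adjusted p up to 0.0945 and 0.156). Fos, Egr1, Ier2, Jun and Myc, named after their values were seen, passed at neither time. Phlda1, which encodes a pleckstrin homology domain protein and was named after its values were seen, was at -0.65 ± 0.13 at 6 h (SE; adjusted p = 0.012) and 0.47 ± 0.13 at 1 h (adjusted p = 0.0208, lost without replicate 3 or 4). Etv1, an ETS factor, was at -1.09 ± 0.09 at 6 h (SE; adjusted p = 0.00038) and -0.68 ± 0.09 at 1 h (adjusted p = 0.00134). Mcl1, a survival factor, was at 0.40 ± 0.18 at 6 h (adjusted p = 0.15) and 1.02 ± 0.18 at 1 h (adjusted p = 0.00333). Jund was at 0.25 ± 0.12 at 6 h (adjusted p = 0.17) and 0.71 ± 0.12 at 1 h (adjusted p = 0.00279). Fosl1, an AP-1 subunit named after its values were seen, was at 0.90 ± 0.20 at 6 h (adjusted p = 0.0173, lost without replicate 2 or 4) and 0.60 ± 0.20 at 1 h (adjusted p = 0.0395, lost without replicate 1, 2 or 3, and 0.30 without replicate 2). In these 5 groups together 17 of 24 calls at 6 h and 20 of 44 at 1 h ended when some single array was left out. The same count was not made over all features. Leaving out a 6 h array lowered the share of all features called at 6 h from 17.7% to between 7.28% and 11.5%. Leaving out a 1 h array lowered the share at 1 h from 40.9% to between 28.7% and 34.5%.

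Corticosteroid targets were examined on the same arrays for comparison. Of 22 corticosteroid targets chosen with earlier results of these arrays known, 11 were above vehicle and 1 below at 6 h, and 6 above and 5 below at 1 h (medians 0.43 and 0.20). Those below at 1 h were Per1, Zbtb16, Cebpd, Map3k6 and Hif3a, named after their values were seen. Hif3a was also below at 6 h. Of these calls, only those of Cebpd and Hif3a at 1 h held without any given array. Fkbp5, an immunophilin of steroid receptor complexes, was at 2.10 ± 0.11 at 6 h (SE; adjusted p = 6.69e-05) and 0.53 ± 0.11 at 1 h (adjusted p = 0.00563). Sult1d1, a sulfotransferase, was at 2.34 ± 0.15 at 6 h (adjusted p = 0.000157) and -0.12 ± 0.15 at 1 h (adjusted p = 0.529), and Atp1b1, a sodium pump subunit, at 1.35 ± 0.09 (adjusted p = 0.000202) and 0.84 ± 0.09 (adjusted p = 0.000916).

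**Figure D4:**
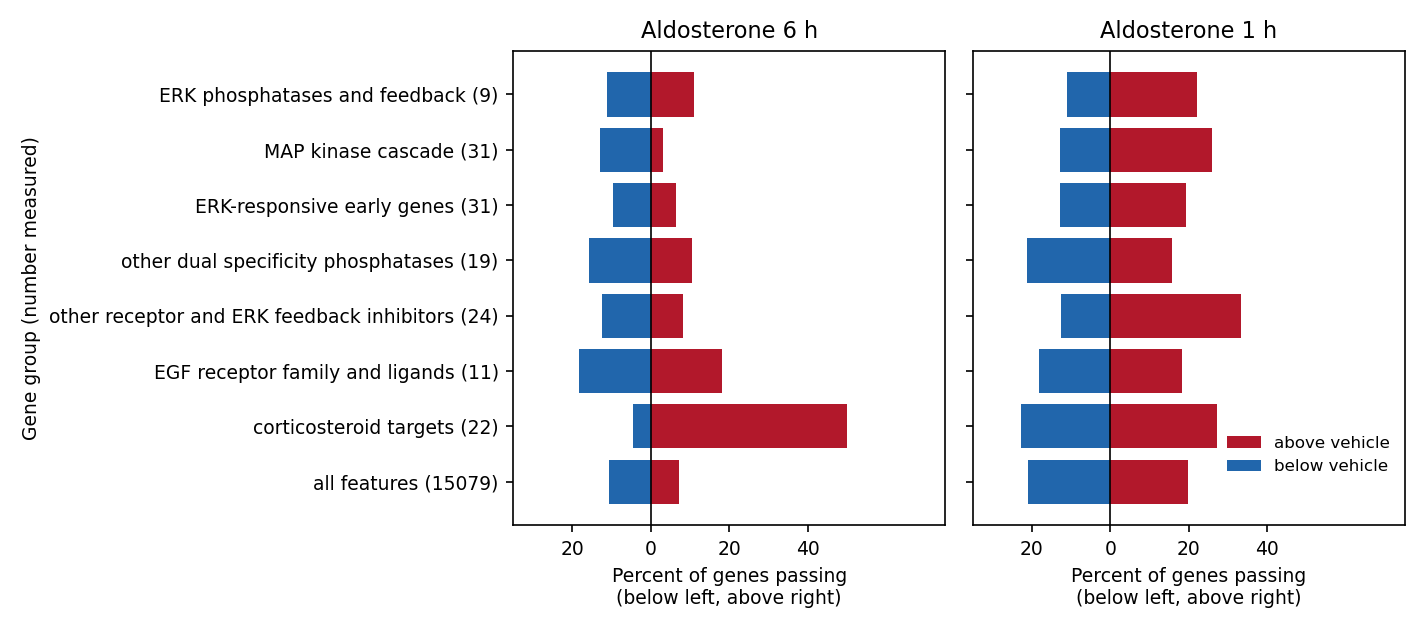
Percent of the measured genes of each group above vehicle (red, right of 0) and below vehicle (blue, left of 0) at an adjusted p under 0.05 in limma, at 6 h (left panel) and 1 h (right panel), with the number measured in brackets. All features stand at 7.11% above and 10.6% below at 6 h, and at 19.9% above and 21% below at 1 h.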

How the data were processed

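Ratios of aldosterone over vehicle were measured in mpkCCDc14 cells on 8 dual-colour arrays, 4 at 6 h and 4 at 1 h. The authors scanned the slides with GenePix 4.0, normalized in R and deposited a log2 ratio of Cy5 to Cy3 per probe, per the labels. How they normalized, corrected background and filtered spots is not given in the sources used here, and the signal over background of each spot is unknown. The number of arrays limits the precision. Nothing says whether arrays came from separate cultures, so p-values reflect only how these arrays vary, which may be technical. Probes were named through the platform annotation (13768 with 1 symbol, 13 with several, 2580 unnamed), and probes of 1 gene were averaged. Features with at least 3 values per time entered one limma fit (limma 3.58.1, R 4.3.3) with a mean for each time, 6 residual and 3.73 prior degrees of freedom, tested on simulated data. The fit gives each feature 1 spread for both times, which intervals and p-values use in place of the SD of 1 time. P-values are two-sided and adjusted over all 15079 features (Benjamini-Hochberg). Alternatives were other scalings, filters, probes, moderation, weights, times fitted alone, SAM and left-out arrays. SAM was computed anew here, at a false discovery rate of 5%, and is not the authors' run. Genes named besides the listed ones were the 3 of each list with the smallest p at either time and the 3 nearest in ratio. Ptp4a2, Dusp18, Erbb4, Lamtor3, Map3k7, Ksr1, Rps6ka5, Junb, Etv4, Sgk1, Tsc22d3 and Klf9 fall outside that rule and were named after their values were seen, as were those marked in the text. The listed genes and all lists were chosen with earlier results of these data known. Figures used matplotlib 3.10.9 in Python 3.11.15.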

Additional observations from a re-analysis of the deposited data

Results flagged for a closer look

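Dusp2 at 6 h had 1 array far from the others: replicate 4 stood at 0.69, against 0.12 to 0.17 on replicates 1 to 3, a gap of 0.912 of the whole range, above Dixon's 95% limit for 4 values. Replicate 4 also had the widest spread over all features at 6 h (SD 0.481). Of the 18 sets of 4 arrays examined, 9 genes at 2 times, this was the 1 past the limit, and chance flags about 1 in 20.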

How the results depend on the processing

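Every scaling, filter, probe and moderation setting, array weighting and SAM kept Dusp6 and Spry4 among the calls at 6 h, and Dusp2 and Spry4 among those at 1 h. At 6 h the number of the 9 genes called was 3 after either scaling and otherwise 2, but lay between 0 and 1 when a 6 h array was left out, with fewer arrays in the fit. At 1 h it lay between 2 and 4 over all settings and between 2 and 3 with an array left out, while from 28.7% to 52.9% of all features passed, 52.9% by SAM with its 4 calls. For the difference it was 0 under each setting run. Of all features 33.2% passed at 6 h after common-spread scaling, 32.2% after quantile normalization, 26.8% with array weights, 34.4% by SAM and 7.28% to 11.5% with a 6 h array left out, against 17.7% as reported. The filter for all 8 values removed no feature, and each of the 9 genes had 1 probe. The filter and probe settings therefore could not move a mean, and their values are among the 326 that follow. As reported, 2 of the 9 values were calls at 6 h, 3 at 1 h and 0 for the difference. Only those calls could be lost, and uncalled values that stayed so with the same sign count as kept. Of 351 recomputed values 326 kept direction and side of the threshold, 11 lost a call and 4 gained one. Another 10 changed sign, all of these for uncalled values with an array left out. Their ranges over the left-out arrays were -0.13 to 0.16 for Errfi1 at 6 h, -0.002 to 0.27 for Errfi1, -0.20 to 0.20 for Dusp1, -0.10 to 0.38 for Dusp6 and -0.083 to 0.17 for Spry2 at 1 h. For 6 h minus 1 h they were -0.026 to 0.38 for Dusp1 and -0.19 to 0.071 for Spry2. No paired analysis was possible because the labels give the times no shared replicate numbers. Signal over background is unknown, so which ratios rest on dim spots cannot be told.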
